A study of Mus musculus with 16 samples.

Results

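Gm-numbered genes are mouse genes that carry only a provisional gene-model symbol, the letters Gm followed by a number. The 127 genes described here were selected on their counts, by the rule that a symbol of this form had 10 or more counts in each of 16 libraries, and they come from 7141 rows with such a symbol in a table of 54347 genes. Of those 7141 rows, 3282 had at least 1 count and 281 entered the tests across all genes, among them all 127 that met the rule. *Gm15551* and *Gm47140*, which did not reach the minimum, were added by name because of their known response, so their values are a description without a test. The libraries were made from poly(A) RNA of wt1-SAM cells, an immortalised mouse brown preadipocyte line that stably expresses the CRISPR activation (SAM) machinery and was differentiated into adipocytes. Cells were transfected in suspension on day 4 of differentiation with 250 ng plasmid, either the vector without a guide (empty) or the MS2 vectors carrying guides 2 and 7 against *Gm15551*, and were harvested on day 7. The β-adrenergic agonist isoproterenol was given at 1 µM for the last 24 h or left out. This gave 4 groups of 4 libraries: empty vector control, empty vector with isoproterenol, sgRNA control and sgRNA with isoproterenol, each numbered as replicates 3 to 6. All groups share one cell line, the SAM machinery, the adipogenic cocktail and a transfection, and the labels do not say whether the replicates were separate cultures, so p-values measure the spread between these libraries, which may be partly technical.

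A Gm symbol says nothing about what a gene does. Under these symbols stand long noncoding RNAs (lncRNAs), which are transcripts without a recognised protein, predicted coding genes, and pseudogenes, which are copies of other genes. A processed pseudogene arises when a spliced mRNA is copied back into the genome, so its sequence can be almost the same as that of its parent, and short reads from the parent then also fit the copy. In brown adipocytes isoproterenol acts through the β-adrenergic receptor, cyclic AMP and protein kinase A, and it changes the transcription of many genes. The SAM machinery recruits transcriptional activators to the place where the sgRNA binds, usually just before a transcription start site.

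The guide that could be placed whole lies close to the start of *Gm15551*, an antisense lncRNA of 2 exons at chr3:126667329-126669044 on the minus strand (GRCm38) inside the *Camk2d* locus. Both guides and the sequence around the start are shown because the sgRNA comparison rests on them. The letters in capitals in the target are the PAM, the short motif that Cas9 needs beside the target, and those in the promoter window are the target with its PAM.
Guide 2: cacttccagttatataagcg
Guide 7: agggttttttgctaaaacgg
Target of guide 2 with PAM, chr3:126669050-126669072, minus strand: cacttccagttatataagcgTGG
*Gm15551* promoter window, chr3:126668894-126669193, minus strand: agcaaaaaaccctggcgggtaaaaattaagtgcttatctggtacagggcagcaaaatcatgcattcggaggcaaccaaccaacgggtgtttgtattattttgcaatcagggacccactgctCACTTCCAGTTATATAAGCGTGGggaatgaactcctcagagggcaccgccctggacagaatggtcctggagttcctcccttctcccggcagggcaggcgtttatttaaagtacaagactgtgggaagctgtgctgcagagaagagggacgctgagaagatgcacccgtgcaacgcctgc
The window is RefSeq's for GRCm38.p6 and runs from 250 bases before the annotated start to 50 bases after it. The target of guide 2 ended 109 bases before this RefSeq start, and 5 bases lay between its PAM and the 5′ end of the gene in the GENCODE annotation. Guide 7 was not found whole in the window. Its first 13 bases match the upstream edge of the window on the opposite strand, chr3:126669181-126669193, and its other 7 bases and any PAM would lie beyond the window.

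*Gm15551* itself was barely counted in these libraries. In the empty vector control cells replicates 3 to 6 held 18, 15, 3 and 13 counts, and with isoproterenol they held 0, 3, 0 and 5. In the sgRNA cells the counts were 56, 42, 19 and 44 without and 23, 26, 13 and 24 with isoproterenol. All 8 sgRNA libraries were higher than the empty vector library of the same number and treatment, and all 8 isoproterenol libraries were lower than their control. The levels were 0.952 ± 0.405 CPM, which is counts per 1000000 counts of the scaled library, in empty vector control, 0.147 ± 0.199 in empty vector with isoproterenol, 2.97 ± 1.08 in sgRNA control and 1.56 ± 0.420 in sgRNA with isoproterenol (SD, n = 4). Stimulated sgRNA cells thus held more *Gm15551* than unstimulated empty vector cells on average, and both groups overlapped, since the range of the former was 1.04 to 2.04 CPM and that of the latter 0.390 to 1.35 CPM. 3 counts, the limit that a count of 0 allows, were worth 0.166 to 0.390 CPM in these libraries, so the levels in stimulated empty vector cells were at about this limit. *Camk2d*, the calcium/calmodulin-dependent kinase gene on the other strand, lay at 62.8 to 71.3 CPM in empty vector control and at 63.1 to 75.1 CPM in sgRNA control, and its averaged sgRNA difference was −0.05 on the log2 scale. With isoproterenol *Camk2d* differed by −0.34 ± 0.07 (adjusted p 0.00727), in the same direction as *Gm15551* and short of the bound of 0.5.

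*Gm47140* is a single-exon transcript within an intron of *Zfp445* on the same strand (chr9:122847019-122848418, minus strand), where *Zfp445* encodes a zinc finger protein. It had 15, 11, 5 and 12 counts in empty vector control and 49, 86, 29 and 52 with isoproterenol. In the sgRNA cells the counts were 8, 5, 8 and 9 without and 57, 61, 80 and 56 with isoproterenol. The control and isoproterenol libraries did not overlap with either plasmid. Its level went from 0.880 ± 0.266 to 4.78 ± 1.11 CPM with the empty vector and from 0.556 ± 0.128 to 4.72 ± 1.31 CPM with the sgRNA plasmids (SD, n = 4). *Zfp445*, from whose unspliced RNA reads on this strand cannot be told apart, differed by 0.11 ± 0.06 (log2, SE) with isoproterenol and lay between 49.3 and 62.6 CPM in every library. The sgRNA difference of *Gm47140* was −0.34 ± 0.20 (log2, SE) averaged over treatments, and 7 of 8 sgRNA libraries were lower than their partners.

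**Figure D1:**
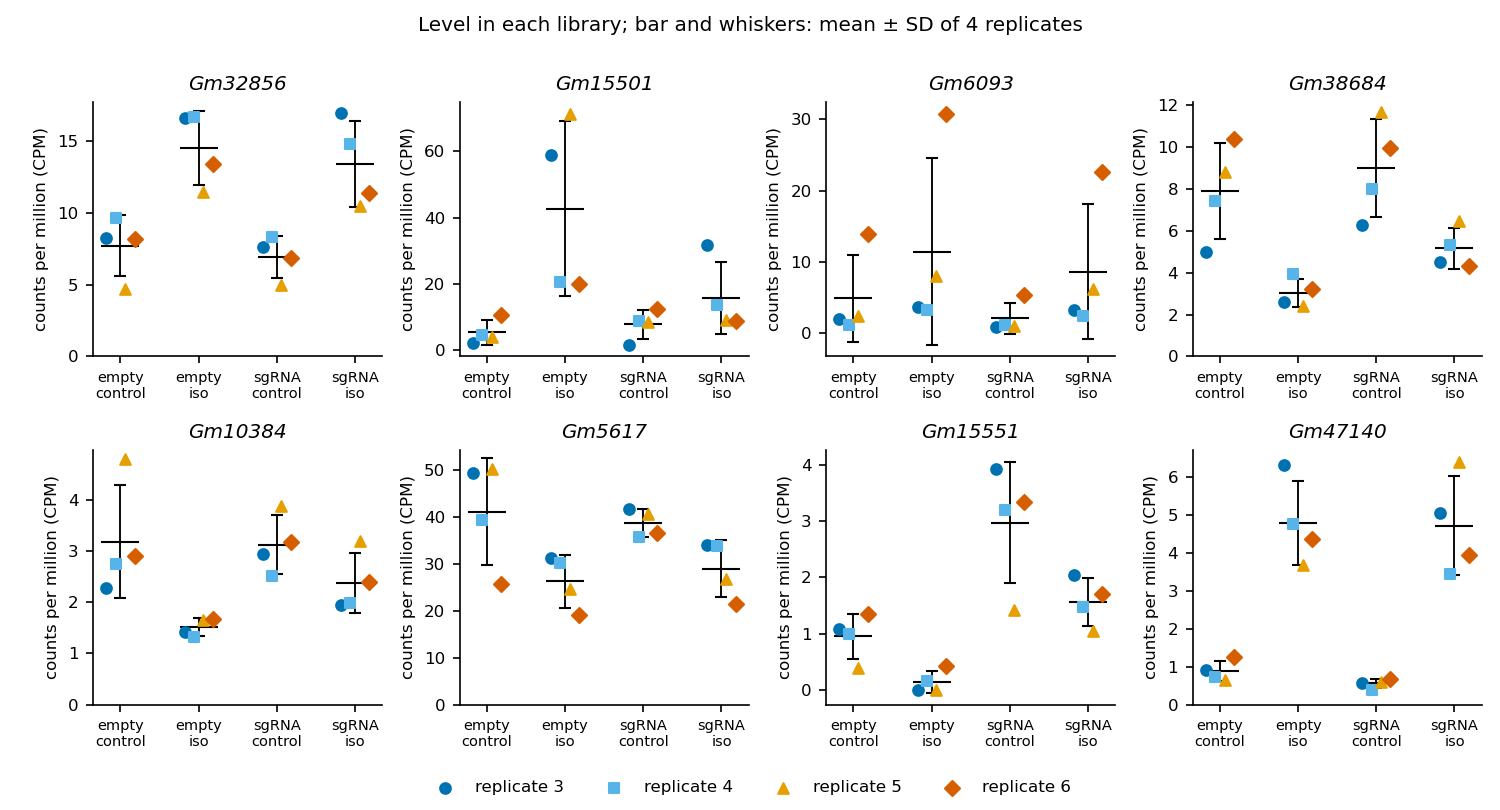
Level of 8 genes in each library in CPM (vertical axes, linear, different scales), by group, with 1 symbol per replicate number and a bar and whiskers for mean ± SD of 4 replicates. *Gm32856* and *Gm38684* move in opposite directions with isoproterenol, *Gm6093* is highest in replicate 6 of every group, and *Gm15551* and *Gm47140* were added by name.

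The 127 genes were a mixed set with low levels. GENCODE classed 47 as protein coding, 40 as lncRNA (21 lincRNA, 12 antisense, 4 processed transcripts, 2 from bidirectional promoters and 1 sense intronic) and 39 as pseudogenes, and 1, *Gm22009*, as a small Cajal body RNA. Their mean level over all libraries ran from 1.43 CPM for *Gm4419* to 1832 CPM for *Gm10925*, with a median of 5.89 CPM. 54 genes lay under 5 CPM and 13 above 100 CPM. Per kilobase of exon the levels spanned 0.228 to 2702 CPM with a median of 3.09. Of the 3 larger classes pseudogenes had the highest median per length, 14.04 CPM per kilobase, against 3.20 in coding genes and 1.93 in lncRNAs. The 127 genes together took 0.573% to 1.21% of a library's counts, and 61.4% of that fell on 5 genes, *Gm10925*, *Gm7336*, *Gm11808*, *Gm15459* and *Gm15500*. They lay on 20 chromosomes, with 17 on chromosome 2, and 50 had a single exon. *Gm11827*, *Gm16001*, *Gm32031*, *Gm3604*, *Gm4013*, *Gm4419*, *Gm7008* and *Gm9958* stood just inside the count minimum with a lowest count of 10. *Gm10036*, *Gm12758*, *Gm14966*, *Gm15545*, *Gm15787*, *Gm31593* and *Gm4742* stood just outside with 9. A minimum of 5 counts would have admitted 170 genes and one of 20 counts 89.

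Library totals ran from 9053521 to 16546187 counts. A single ribosomal RNA gene took 11.7% to 51.8% of them, and this share was above 40% in only 3 libraries, empty vector control replicate 5 at 47.3% and empty vector with isoproterenol replicates 3 and 5 at 41.6% and 51.8%. Of 9 adipocyte markers all 9 passed the filter, with a summed level between 10004 and 22847 CPM. Most of this sum was *Fabp4*, with a mean of 14462 CPM over all libraries. The brown adipocyte markers *Cidea* and *Ucp1* were scarce, with means of 4.07 and 4.17 CPM, and *Ucp1* ran from 0 to 15.5 CPM. With isoproterenol 3 of the 9 fell, *Adipoq*, *Lipe* and *Cidec*, by 1.06, 0.69 and 0.54 on the log2 scale, and 1 rose, *Ucp1*. With the replicate block *Plin1* also fell, by 0.57, and *Cidea* rose, by 1.20. Of 5 macrophage markers only *Cd68* passed, and the others were at or near 0. The macrophage sum was 6.44 to 14.1 CPM in control libraries and 13.6 to 22.5 CPM with isoproterenol. *Pecam1* alone of 4 endothelial markers passed. The 5 preadipocyte or fibroblast markers had a summed level of 8.12 to 50.4 CPM. Of these *Pdgfra*, *Col1a1* and *Pdgfrb* passed the filter, and none passed the test for isoproterenol. Of 7 genes that report β-adrenergic stimulation, 5 rose with isoproterenol, *Nr4a1*, *Nr4a3*, *Ppargc1a*, *Pde4d* and again *Ucp1*. *Crem* differed by 0.35, short of the bound of 0.5, and *Dio2*, at 0 to 0.0801 CPM, did not pass the filter. Where an RNA differs between groups in these bulk samples, fewer cells that make it and less RNA per cell cannot be told apart.

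Isoproterenol changed 5 of the 127 genes when the effect was averaged over both plasmids. *Gm32856* and *Gm15501* rose, and *Gm38684*, *Gm10384* and *Gm5617* fell. Change here means an adjusted p under 0.05 in edgeR's quasi-likelihood test and more than 0.5 on the log2 scale. By this rule 3.94% of the 127 genes were called, and 2.65% of all 13150 genes tested. DESeq2 called 7, adding *Gm30173* and *Gm8251*, where 3.44% of all genes tested were called. With the replicate number as a block 9 were called, which are those 7, *Gm6093* and *Gm10925*, where 5.7% of all genes tested were called. Unadjusted p-values under 0.05 were found for 21.3% of the 127 genes and 17.7% of all genes tested. The median difference over the 127 genes was 0.05 on the log2 scale and the median size of the differences 0.17, against 0.14 over all genes tested. 3 further genes had an adjusted p under 0.05 but a smaller change. These were the lincRNA *Gm46430* at 0.37, *Gm7336* at 0.44 and *Gm15459* at 0.33, all higher with isoproterenol.

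*Gm32856*, a lincRNA with 6 exons at chr8:129263641-129282844 (plus strand), rose with both plasmids. Its level was 8.24, 9.66, 4.67 and 8.20 CPM in empty vector control replicates 3 to 6 and 16.6, 16.7, 11.5 and 13.4 CPM with isoproterenol. In sgRNA cells it was 7.63, 8.29, 4.94 and 6.84 CPM in control and 16.97, 14.8, 10.5 and 11.4 CPM with isoproterenol. Every isoproterenol library stood above every control library, and replicate 5 was the lowest or nearly the lowest in each group. The averaged change was 0.93 ± 0.16 (log2, SE), with an adjusted p of 0.00256, and it was 0.90 with the empty vector and 0.95 with the sgRNA plasmids. Only 0.161% of its 50-base windows occur in another gene. The nearest coding gene, *2610044O15Rik8*, lies 29235 bases away and differed by 0.02 ± 0.10. The call was kept without each single library in turn and was lost without all 4 libraries numbered replicate 3, where the change was 0.87 and the adjusted p in edgeR 0.0636. With the replicate block it was kept without each replicate number (adjusted p up to 4.85e-05).

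*Gm38684* is an antisense lncRNA of 4 exons at chr3:121531619-121536206 (plus strand), which the annotation also names A530020G20Rik. Its control levels were 5.00, 7.42, 8.83 and 10.4 CPM with the empty vector and 6.30, 7.98, 11.7 and 9.96 CPM with the sgRNA plasmids. With isoproterenol they were 2.58, 3.93, 2.42 and 3.20 CPM with the empty vector and 4.53, 5.32, 6.49 and 4.31 CPM with the sgRNA plasmids. Each library with isoproterenol was lower than its control partner, and within the empty vector the groups did not overlap. The averaged change was −1.07 ± 0.18 (log2, SE; adjusted p 0.00206), and the call was kept without each library and without each replicate number. The change was −1.35 with the empty vector and −0.80 with the sgRNA plasmids, and the difference between both was 0.55 ± 0.35, which did not pass the test. *Slc44a3*, a choline transporter-like gene on the opposite strand, overlaps it over 349 exonic bases, with start sites 785 bases apart. It fell by 0.73 ± 0.14 on the log2 scale (adjusted p 0.00504), and the groups did not overlap. It lay at 2.91 to 4.03 CPM in empty vector control and at 1.65 to 2.10 CPM with isoproterenol, and in sgRNA cells at 2.51 to 3.59 CPM and at 1.69 to 2.08 CPM. It was the only coding neighbour of a lncRNA in the set that was called without the block. The strand of the counting is not given in the sources used here, so reads of both genes over the shared exons could not be separated with certainty.

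*Gm10384*, a lincRNA of 2 exons at chr15:36870501-36879816 (minus strand), was one of the scarcest genes called. It lay at 2.29, 2.76, 4.804 and 2.91 CPM in empty vector control and 1.42, 1.33, 1.65 and 1.68 CPM with isoproterenol, without overlap. In the sgRNA cells it lay at 2.94, 2.51, 3.89 and 3.19 CPM in control and at 1.96, 1.98, 3.20 and 2.40 CPM with isoproterenol, where the ranges overlapped. The averaged change was −0.72 ± 0.18 (adjusted p 0.0345). The change was −1.05 with the empty vector and −0.39 with the sgRNA plasmids, and the difference of 0.65 ± 0.37 did not pass the test. The averaged call was lost in 10 of 16 fits that left out a single library, in which the largest adjusted p was 0.0783. Those libraries were replicate 5 of empty vector control, replicates 3, 4 and 6 of empty vector with isoproterenol, and replicates 3, 5 and 6 of sgRNA control and 3, 4 and 6 of sgRNA with isoproterenol. It was also lost without each of the 4 replicate numbers, with changes between −0.77 and −0.64 and an adjusted p of up to 0.178, and without the filter on low counts (adjusted p 0.0853). With the replicate block the call was kept without each replicate number (adjusted p 0.00736 to 0.0144). *Ywhaz*, an adaptor protein gene 73572 bases away, differed by 0.20 ± 0.07.

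*Gm5617* is a predicted coding gene with a single exon of 531 bases at chr9:48495442-48495972 (plus strand), 143 bases from the start site of *Rbm7*, which encodes an RNA-binding protein. It was counted at 49.3, 39.3, 50.2 and 25.6 CPM in empty vector control and 31.3, 30.2, 24.7 and 19.1 CPM with isoproterenol. In sgRNA cells it was at 41.7, 35.7, 40.8 and 36.6 CPM in control and 34.1, 33.8, 26.8 and 21.4 CPM with isoproterenol. Each of 8 isoproterenol libraries was lower than its partner, and the groups overlapped with the empty vector through replicate 6. The averaged change was −0.53 ± 0.14 (adjusted p 0.0485). This call was at the threshold and was kept only when empty vector control replicate 6 was the library left out, whereas it was lost without any other single library, where the change nearest to 0 was −0.47 and the largest adjusted p 0.108. It was also lost without replicate number 3, 4 or 5, with an adjusted p of up to 0.266, and, with a change of −0.52 in both, with the share of ribosomal RNA as a covariate (adjusted p 0.0518) and with the ribosomal RNA gene left out (adjusted p 0.0503). With the replicate block the call was kept without replicate number 3, 4 or 6. Without number 5 it was lost, at a change of −0.44 (adjusted p 0.00845), short of the bound. *Rbm7* differed by 0.16 ± 0.09, in the opposite direction. No other gene shares a 50-base window with *Gm5617*.

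*Gm15501* had the largest averaged change, and its libraries disagreed more than those of the other called genes. It is a transcribed processed pseudogene at chr7:93178983-93184176 (minus strand). Its level was 2.17, 4.73, 4.03 and 10.7 CPM in empty vector control and 59.0, 20.7, 71.4 and 20.1 CPM with isoproterenol. In the sgRNA cells it was 1.68, 8.74, 8.46 and 12.5 CPM in control and 31.8, 13.7, 9.29 and 8.83 CPM with isoproterenol. With the empty vector the groups did not overlap, while with the sgRNA plasmids replicate 6 was lower with isoproterenol than without. The averaged change was 2.01 ± 0.43 (log2, SE; adjusted p 0.0138). It was 3.00 ± 0.64 with the empty vector and 1.02 ± 0.60 with the sgRNA plasmids. The difference, −1.99 ± 0.86, was the only one among the 127 genes with an unadjusted p under 0.05 for the interaction, and it did not pass the adjusted test. The averaged call was kept without each single library and lost without replicate number 3, 4 or 5, where the change lay between 1.31 and 2.16 and the largest adjusted p was 0.144. With the replicate block it was kept without each replicate number, with changes between 1.26 and 2.59 and an adjusted p of up to 0.0272. Both libraries with the highest level, empty vector with isoproterenol replicates 5 and 3, were among the 3 with over 40% ribosomal RNA counts, while the third of these, empty vector control replicate 5, had one of the lowest. With that share entered as a covariate the averaged change was 1.74 ± 0.42 and stayed called, while the change with the empty vector was 2.51 ± 0.64 and was no longer called (adjusted p 0.0641). It was not called when the counts of near-identical genes were added before the fit, an alternative chosen after seeing the data. The size of the change in that fit is not given here.

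Many of the genes resemble a coding gene of another name, and both were compared for 62 of the 127 genes. In these pairs identity was at least 90% over at least 50% of the member's length, and 56 reached 95% and 14 reached 100% identity. They were 34 of 39 pseudogenes, 26 of 47 coding genes and 2 of 40 lncRNAs. In 20 pairs more counts were assigned to the member than to the similar gene, which in 6 of these pairs also has a Gm number. *Gm15500* held 144078 counts and *Rpl5* 8800, *Gm10275* held 125258 and *Rpl12* 9148, and *Gm4737* held 34952 and *Ahcy* 1063. *Rpl5* and *Rpl12* are proteins of the large ribosomal subunit and *Ahcy* hydrolyses S-adenosylhomocysteine. The level of such a gene depends on how salmon divided the shared reads, and is uncertain to that extent. In 61 pairs both genes were tested. The isoproterenol differences had the same sign in 44 and were within 0.2 on the log2 scale in 48, and 4 pairs differed by more than 0.5. Beside *Gm10925*, described next, these 4 held 3 coding genes, *Gm3055* with *Zfp781*, *Gm2026* with *Gm14434* and *Gm6710* with *Gm14391*. Across the 61 pairs Pearson's r was 0.44 and Spearman's rho 0.52, and rho was 0.78 across the 34 pseudogene pairs and 0.01 across the 25 coding pairs, of which 13 had the same sign. These are descriptions across genes whose reads are shared, measured in the same libraries. Some genes recur across pairs, such as *Gm14308*, *Hspa8* and *Tuba1b*, so the pairs are not separate comparisons.

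**Figure D2:**
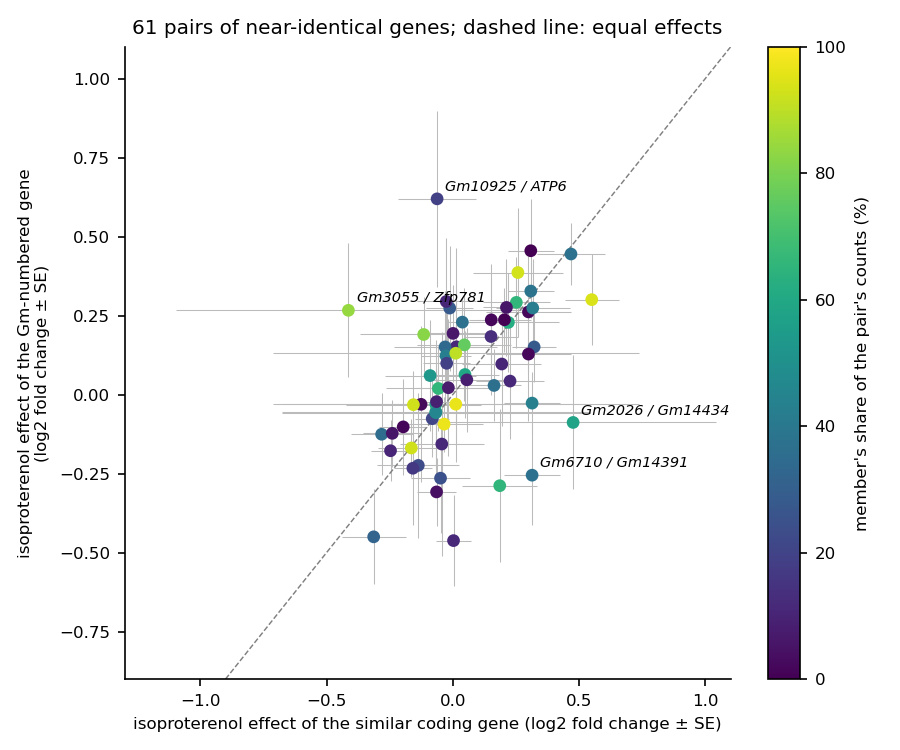
Averaged isoproterenol effect of 61 Gm-numbered genes (vertical axis, log2 fold change ± SE) against that of the named or predicted coding gene each resembles (horizontal axis, log2 fold change ± SE), coloured by the share of the pair's counts held by the Gm-numbered gene in percent, with a dashed line of equal effects. Most pairs lie near the line, and *Gm10925* with the mitochondrial ATP synthase gene and *Gm3055* with *Zfp781* stand farthest from it.

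The 2 most abundant genes of the set were copies of this kind. *Gm10925* (chr1:24613974-24614651, minus strand) is a nuclear copy of the mitochondrial gene for subunit 6 of ATP synthase. It aligned to that gene over all of its 678 bases without a mismatch, and it begins with the same bases, of which 60 are shown to make this plain.
*Gm10925* and *mt-Atp6*, bases 1 to 60 of both: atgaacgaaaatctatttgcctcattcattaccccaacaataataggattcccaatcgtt
Its share of the pair's counts was 6.82% in empty vector control replicate 3 and 36.9% in empty vector with isoproterenol replicate 5. Its level ran from 557 to 3061 CPM in empty vector control, 1654 to 3508 CPM with isoproterenol, 847 to 1453 CPM in sgRNA control and 1086 to 2400.3 CPM in sgRNA cells with isoproterenol. The 3 libraries with over 40% ribosomal RNA counts were the 3 with the highest level of *Gm10925*, at 3061, 3508 and 2814 CPM. The isoproterenol difference was 0.62 ± 0.28 and did not pass the test without the block, where it was 0.37 without replicate number 3 and 0.87 without empty vector control replicate 5, and with the replicate block it was 0.63 ± 0.21 and passed (adjusted p 0.0484). This call was lost in the blocked fits without replicate number 3, 4, 5 or 6. With the share of ribosomal RNA added to the block as a covariate the difference was 0.50 ± 0.20 and was not called. The mitochondrial gene itself differed by −0.06 ± 0.15 and the sum of both by 0.08 ± 0.15. The averaged sgRNA difference of *Gm10925* was −0.43 ± 0.28, and with the covariate alone it was 0.29 ± 0.25. With the replicate block it was −0.42 ± 0.21, and with block and covariate 0.11 ± 0.31. It was not called in any of these fits, but it was called in the blocked fit without replicate number 3.

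*Gm7336* (chr7:51746647-51747878, plus strand) is a processed pseudogene of *Gapdh*, the glycolytic enzyme often used as a reference gene. In the transcripts 1198 of its 1232 bases aligned to *Gapdh* with no mismatch and 2 gap bases, and the first 60 bases of the reading frame are shown as an example.
*Gm7336*, transcript bases 51 to 110, and *Gapdh*, bases 93 to 152: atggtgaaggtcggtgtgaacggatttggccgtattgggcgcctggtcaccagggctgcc
It held 30.6% to 43.3% of the pair's counts, a far steadier share than that of *Gm10925*. Its level was 1275, 1142, 837 and 975 CPM in empty vector control and 1528, 1569, 1172 and 1467 CPM with isoproterenol. In the sgRNA cells it was 1200, 1185, 1095 and 1070 CPM in control and 1710, 1639, 1411 and 1457 CPM with isoproterenol. All 8 libraries with isoproterenol were higher than their partners. The difference was 0.44 ± 0.10 for *Gm7336*, 0.47 ± 0.13 for *Gapdh* and 0.46 ± 0.12 for their sum (adjusted p 0.0348), each under the 0.5 bound. With the share of ribosomal RNA as a covariate *Gm7336* was called, at 0.51 ± 0.08 (adjusted p 0.00122). *Gm15459*, the copy of the chaperone gene *Hspa8*, differed by 0.33 ± 0.08 and *Hspa8* by 0.31 ± 0.09. *Gm15500* differed by 0.30 ± 0.14 and did not pass the test, whereas its parent *Rpl5*, with far fewer counts, rose by 0.55 ± 0.11 (adjusted p 0.00650).

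By class, the differences with isoproterenol centred near 0. The median difference was 0.00 in 40 lncRNAs and 0.03 in 47 coding genes. It was 0.13 in 39 pseudogenes, of which 27 were positive, and it was 0.11 in the other 397 pseudogenes tested. 1 lncRNA rose and 2 fell, 1 coding gene fell, and 1 pseudogene rose. Of the other genes tested 2.77% of lncRNAs, 2.69% of coding genes and 0.756% of pseudogenes were called. All isoproterenol libraries were higher than their same-numbered controls, 8 of 8 pairs, for 12 genes, and all were lower for 8 genes, together 15.7% of the set against 15.8% of all genes tested. Among the former were *Gm32856*, *Gm6093*, *Gm7336*, *Gm15459*, *Gm15500* and *Gm46430*, and among the latter *Gm38684*, *Gm10384* and *Gm5617*.

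**Figure D3:**
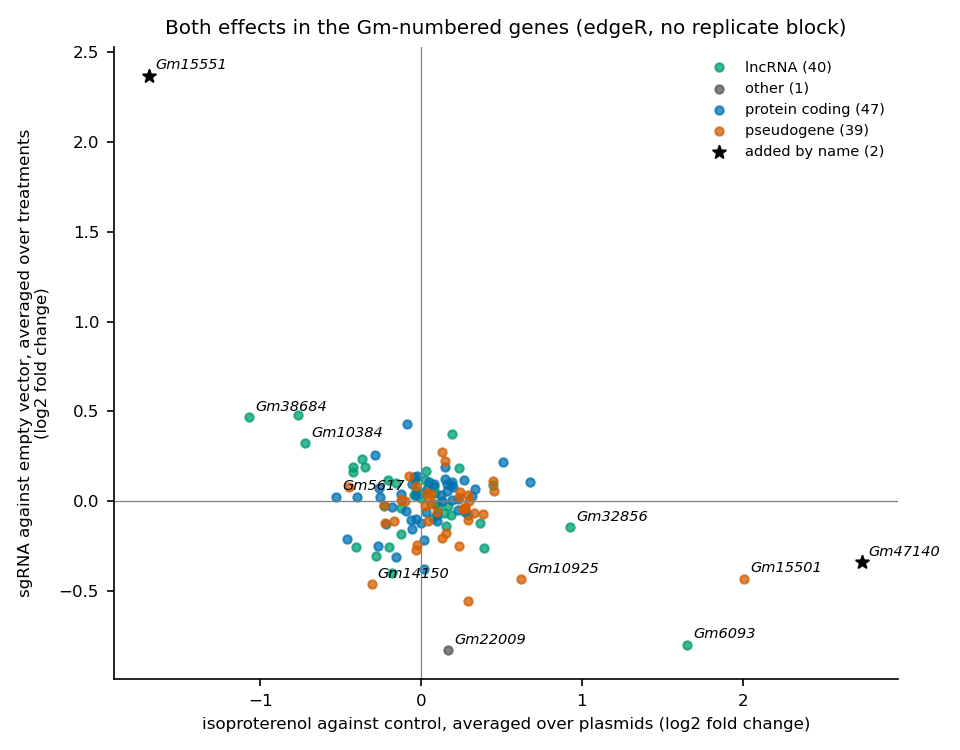
Isoproterenol effect averaged over plasmids (horizontal axis) and sgRNA effect averaged over treatments (vertical axis), both as log2 fold change without the replicate block, for 127 Gm-numbered genes coloured by annotation class and 2 genes added by name as stars. Most genes lie within 0.5 of 0 on both axes, and *Gm15501*, *Gm6093*, *Gm32856* and *Gm38684* stand out along the horizontal axis.

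13 coding members lie in a zinc finger gene cluster on chromosome 2, between 175191065 and 177957297, which is known for large numbers of closely related genes. They were *Gm14391*, *Gm14430*, *Gm4724*, *Gm6710*, *Gm2026*, *Gm14305*, *Gm14295*, *Gm14296*, *Gm14410*, *Gm14418*, *Gm14322*, *Gm14325* and *Gm14326*. Their mean levels ran from 2.25 CPM for *Gm14296* to 89.3 CPM for *Gm14430*. None was called for isoproterenol, where 2.65% of all genes tested were called, with differences between −0.25 and 0.31 around a median of −0.03 and a lowest adjusted p of 0.130. With the replicate block the lowest was 0.0305, for *Gm14391* at 0.32, short of the bound of 0.5. A median of 83.5% of their 50-base windows also occurs in another gene, and for 3 of them, *Gm4724*, *Gm6710* and *Gm2026*, all do. *Gm6710* differed by −0.25 and *Gm14391*, to which it matched at 100% identity over its whole length, by 0.31, while the summed counts of 4 joined genes of the cluster, these and *Gm14325* and *Gm14326*, differed by 0.07 ± 0.08.

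Most lncRNAs of the set lie close to a coding gene. 30 of 40 are on the opposite strand of the nearest or overlapping coding gene, 14 overlap it, and 15 have a start site within 1 kb of that of a gene pointing the other way. 37 of the 40 neighbours were tested, and 23 of them differed in the same direction as the lncRNA with isoproterenol. Across these 37 pairs Pearson's r was 0.61 and Spearman's rho 0.27, a description across genes measured in the same libraries. The pairs farthest from 0 were *Gm6093* with *Serpinb9g* and *Gm38684* with *Slc44a3*. *Gm16740*, antisense to *Mllt11*, differed by −0.21 and *Mllt11* by 0.44. *Gm30173*, a lincRNA 163743 bases from *Foxo1*, a transcription factor gene, differed by −0.77 ± 0.22 and *Foxo1* by −0.13. *Gm30173* was not called without the block, at an adjusted p of 0.0574, and was called with it at 0.00513.

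**Figure D4:**
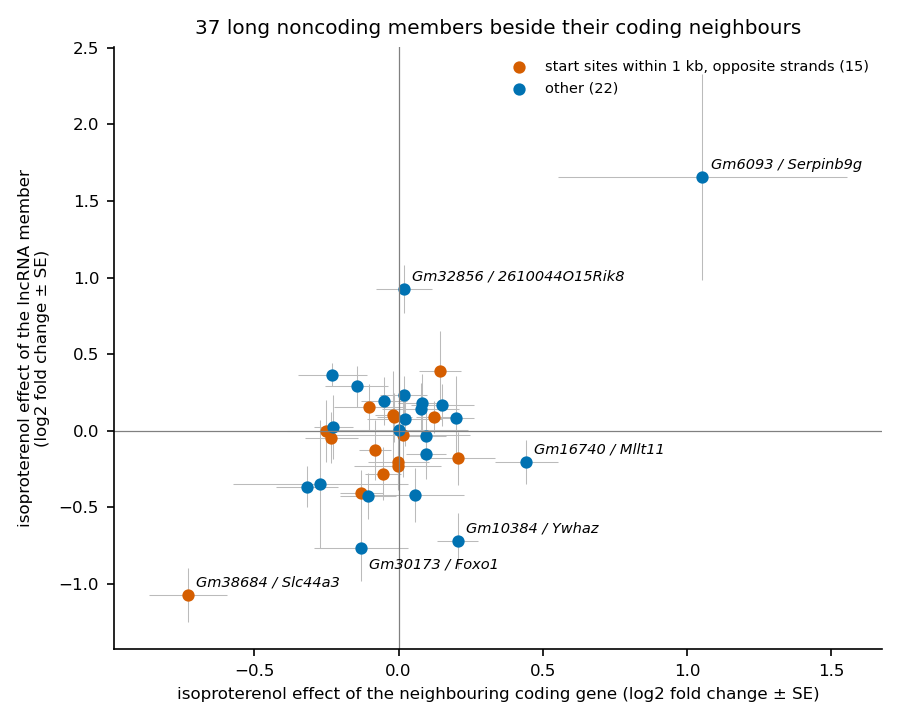
Averaged isoproterenol effect of 37 lncRNAs (vertical axis, log2 fold change ± SE) against that of the coding gene each overlaps or lies next to (horizontal axis, log2 fold change ± SE), with pairs whose start sites lie within 1 kb on opposite strands in orange. *Gm38684* with *Slc44a3* lies at the lower left and *Gm6093* with *Serpinb9g* at the upper right.

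*Gm6093*, a lincRNA of 4 exons at chr13:33562486-33569317 (minus strand), differed more between replicate numbers than between groups. In replicate 6 it had 134, 366, 70 and 321 counts in empty vector control, empty vector with isoproterenol, sgRNA control and sgRNA with isoproterenol. The other 3 replicates had 18 to 33, 29 to 63, 12 to 16 and 37 to 77 counts in these groups. All 8 isoproterenol libraries were higher than their partners, by 1.65 ± 0.67 on average. This did not pass the test without the block (adjusted p 0.203), and with the replicate block the change was 1.62 ± 0.14 and passed (adjusted p 6.73e-07). With the block it was 1.25 ± 0.19 with the empty vector and 1.98 ± 0.20 with the sgRNA plasmids, and the difference between both was not called. *Serpinb9g*, a gene of the intracellular serine protease inhibitors 66482 bases away, also stood out in replicate 6. It was at 18.8, 30.3, 16.5 and 35.7 CPM in replicate 6 of the 4 groups and at 2.56 to 13.8 CPM in all other libraries. Its difference was 1.05 ± 0.50 without the block (adjusted p 0.288) and 1.12 with it (adjusted p 0.000176).

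Taken within each plasmid, isoproterenol changed fewer of the genes. With the empty vector *Gm15501* and *Gm38684* were called of 127, where 0.829% of all genes tested were called. With the replicate block these were 8, with *Gm10384*, *Gm1673*, *Gm30173*, *Gm32856*, *Gm5617* and *Gm6093* in addition, where 4.47% of all genes were. With the sgRNA plasmids none was called by edgeR, 12 had an unadjusted p under 0.05 (9.45%, against 8.46% of all genes tested) and DESeq2 called *Gm32856*, where 0.7% of all genes tested were called by edgeR and 1.33% by DESeq2. With the replicate block *Gm32856*, *Gm38684* and *Gm6093* were called, where 3.9% of all genes were. The comparisons within the empty vector and within the sgRNA plasmids use different libraries. Across the 127 genes their differences had a Pearson's r of 0.69 and a Spearman's rho of 0.60 and the same sign in 88 genes, or 69.3%. Over all genes tested r was 0.53 and rho 0.63, and 75.6% had the same sign. No gene of the set was called for a difference between both, where 0% of all genes tested were called without and 0% with the block. 1 gene of the set, or 0.787%, had an unadjusted p under 0.05 for it in edgeR, against 0.395% of all genes tested. With the block 4 had one, or 3.15% against 1.51%. DESeq2 called 0 of the set and 0 of all 13150 genes tested.

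The sgRNA plasmids changed none of the 127 genes without the block when averaged over treatments, where 0% of all genes tested were called. 8 of the 127 genes, or 6.30%, had an unadjusted p under 0.05 in edgeR, against 3.32% of all genes tested, and DESeq2 called 0 of the 127, where it called 0.076% of all genes tested. With the replicate block 1 was called, *Gm6093*, where 0.266% of all genes were. It differed by −0.73 ± 0.14 on the log2 scale (adjusted p 0.0258) and was lower in 7 of 8 sgRNA libraries than in their partners. The call was lost without replicate number 3, 5 or 6, with an adjusted p of up to 0.451 and differences between −0.74 and −0.57. With the block and the share of ribosomal RNA as a covariate the difference was −0.75 ± 0.20 and was not called (adjusted p 0.480). Without the block it was −0.80 ± 0.67, and −0.23 ± 0.80 with the covariate. It was −1.36 when replicate 6 of stimulated sgRNA cells was left out, −0.11 when replicate 6 of empty vector control was, and in between without any other library, and it was not called in any of these fits. The 3 libraries with over 40% ribosomal RNA counts were all empty vector libraries. Within control cells the sgRNA plasmids changed none of the set, where 0% of all genes tested were called without the block and 0.0304% with it. 4 genes of the set, or 3.15%, had an unadjusted p under 0.05, against 1.48% of all genes tested. With the block 7 had one, or 5.51% against 5.73%. DESeq2 called 0 of the set, where it called only 2 of all 13150 genes tested. Within stimulated cells the sgRNA plasmids also changed none, where the shares of all genes were 0% and 0.122%. 7 genes of the set, or 5.51%, had an unadjusted p under 0.05, against 1.49% of all genes tested. With the block 15 had one, or 11.8% against 7.29%. DESeq2 called 0 of the set, where it again called only 2 of all 13150 genes tested.

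For 3 genes of the set all 8 sgRNA libraries differed from their partners in one direction, and all 3 resemble named genes. *Gm14150* and *Gm3226*, processed pseudogenes of the α-tubulin gene *Tuba1b*, were lower in all 8 sgRNA libraries than in their partners, and *Gm10076*, which resembles the ribosomal protein gene *Rpl41*, was higher in all 8. These 3 genes are 2.36% of the set, and 3.08% of all genes tested were one-sided in this way. *Gm14150* was at 36.5, 24.96, 27.0 and 26.8 CPM in empty vector control and 19.4, 21.5, 17.1 and 18.4 CPM in sgRNA control. With isoproterenol it was at 25.5, 19.4, 20.6 and 19.8 CPM with the empty vector and 19.1, 17.1, 12.3 and 19.1 CPM with the sgRNA plasmids. The groups did not overlap in either treatment. Its difference was −0.46 ± 0.11 with an adjusted p of 0.616 without the block, and −0.45 ± 0.08 with an adjusted p of 0.0173 with it, under the bound of 0.5. With the block and the share of ribosomal RNA as a covariate it was −0.30 ± 0.11 (adjusted p 0.946). *Gm14150* was called in the blocked fit without replicate number 4. It held 2.84% to 5.70% of the counts it shared with *Tuba1b*, which differed by −0.16. The largest difference of the set was that of *Gm22009*, at −0.83 ± 0.31, which did not pass the test. Its 3 highest levels, 13.7, 11.9 and 8.02 CPM, were those of the 3 libraries with over 40% ribosomal RNA counts, all with the empty vector. With that share entered as a covariate its sgRNA difference was −0.01 ± 0.26. The sgRNA differences in control and in stimulated cells had a Pearson's r of 0.24 across the 127 genes and the same sign in 72, or 56.7%, against an r of 0.28 and 63.3% over all genes tested.

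The variance of each gene was divided among the known differences between libraries. In the median gene the replicate number held 32.1% of the variance of log2 CPM among the 16 libraries, isoproterenol 7.42%, the plasmid 2.43% and their interaction 1.41%, and 36.9% was left. In the median of all genes tested these shares were 46.8%, 6.79%, 2.38%, 0.911% and 28.9%. The replicate number held more than isoproterenol and plasmid in 92 of 127 genes, isoproterenol was the largest in 25 and the plasmid in 8. These are 72.4%, 19.7% and 6.30% of the set, against 80.3%, 14.6% and 3.88% of all genes tested. With no effect the replicate number, which has 3 degrees of freedom, would hold 20% on average and each of the other terms, with 1, would hold 6.67%. Such averages are not medians, since shares with few degrees of freedom are skewed. The shares of the median gene can therefore not be measured against them. Per degree of freedom the replicate number was the largest in 61 of the 127 genes, isoproterenol in 43, the plasmid in 14 and their interaction in 9. These are 48.0%, 33.9%, 11.02% and 7.09%, against 55.4%, 30.4%, 10.4% and 3.76% of all genes tested. The median SD within a group was 0.322 on the log2 scale, and 0.266 over all genes tested.

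**Figure D5:**
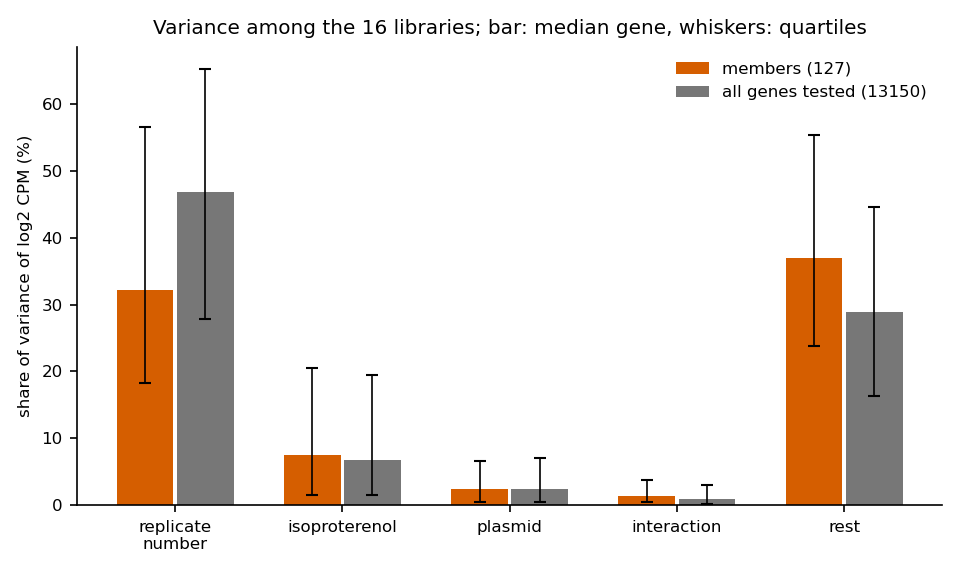
Share of the variance of log2 CPM among 16 libraries in percent (vertical axis) that fell on replicate number, isoproterenol, plasmid, their interaction and the rest (horizontal axis), as the median gene (bars) with quartiles (whiskers) for 127 Gm-numbered genes and all 13150 genes tested. The bar for replicate number is lower and the bar for the rest higher in the Gm-numbered genes.

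Promoter windows from RefSeq were at hand for 69 of the 127 genes, of which some had several starts. The cyclic AMP response element, the palindrome TGACGTCA that CREB binds, was not among the letters of any of these windows, and it occurred on either strand in 3.71% of 9620 tested genes with a window. Its shorter form TGACG, which the palindrome contains, occurred on either strand in 23.2% of the 69 genes and in 36.6% of the tested genes. A match is a description of the sequence and no evidence of binding. *Gm10384* and *Gm10925* had no window.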

How the data were processed

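Paired-end libraries of poly(A) RNA were prepared with the NEBNext Ultra II kit. Per the study's methods and the labels, the authors trimmed reads in cutadapt and ran salmon on the M22 release of the GENCODE transcriptome (GRCm38). Tool versions and the use of strand are not given in the sources used here. The authors deposited 1 table of estimated counts per gene as whole numbers, not normalised. Reads shared by near-identical genes were divided by salmon's model, and reads of overlapping genes on opposite strands could not be told apart with certainty.

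Counts were analysed with edgeR 4.0.16 (quasi-likelihood test, R 4.3.3) after filterByExpr (minimum count 10, minimum total 15), which kept 13150 genes, and TMM scaling, with 4 group means. CPM values use the TMM-scaled library sizes, and an average effect is the mean of the effects in both plasmids or treatments. P-values were adjusted by the Benjamini-Hochberg method over all genes tested, and a gene was called at an adjusted p under 0.05 and a log2 fold change beyond 0.5 in either direction. Log2 CPM for the variance shares used a prior count of 2. Counting error sets a lower limit, so that a count of 0 allows up to 3 counts.

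Replicate numbers paired the libraries. Deviations from the group means correlated between same-numbered libraries in all 24 pairs (lowest 0.22, median 0.41, highest 0.61). The median was −0.21 in 72 pairs with different numbers (−0.51 to 0.52). Deviations cancel within each group, so positive correlations in the former pairs bring negative ones in the latter, which add no separate evidence. The biological coefficient of variation was 22.6%, and 10.7% once the replicate number was a block. The study's methods name no block, so the fit without it is the main one. Where the block changes a call reported here, the blocked value or the blocked call is given.

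Sequence similarity was computed with BLASTN 2.17.0 from the GENCODE M21 transcripts at hand, and shared windows are 50 bases long. For 2 members the similar gene is not reported here. Positions are those of GENCODE M21. Of 54347 rows, 54094 matched this annotation. Promoter windows are RefSeq's, and matched 69 of the 127 genes. *Gm47140* carries no symbol in the table and was taken by its Ensembl identifier, ENSMUSG00000111325. The members and all lists were chosen with earlier results of these data known. Named were the 2 added genes, any member within 1 Mb of *Gm15551* (there was none), called members, those with the 5 highest sums of counts, those next to the count minimum, and the coding gene beside or most similar to each. Other genes printed with values were chosen after their values were seen. Alternatives were DESeq2 1.42.0, RLE factors, no filter, the block, the ribosomal RNA gene left out or its share as a covariate, and each library or replicate number left out. The fit without the block was tried on simulated counts for the averaged isoproterenol effect alone. The simulation held no difference between replicate numbers, so it does not bear on the pairing seen here.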

Additional observations from a re-analysis of the deposited data

Results flagged for a closer look

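*Gm6093* stood apart in replicate 6 of both control groups. It had 13.9 CPM in empty vector control replicate 6, where the other 3 replicates lay between 1.18 and 2.47 CPM. It had 5.32 CPM in sgRNA control replicate 6, where the others lay between 0.839 and 1.22 CPM. In both groups the gap to the nearest other library took up more of the group's range than Dixon's test allows at 95%. 2 of 52 groups examined were marked in this way, and chance marks about 1 in 20. The averaged isoproterenol difference of *Gm6093* was 2.34 without empty vector control replicate 6, which is the highest of the values without 1 library, and the lowest was 1.04.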

How the results depend on the processing

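No called isoproterenol difference of the named genes changed direction in any setting tried, while differences that were not called did in part. The averaged sgRNA difference of *Gm10925*, called in the blocked fit without replicate number 3, did change direction. It was −0.43 in the main fit and 0.29 with the share of ribosomal RNA as a covariate. The number of the 127 genes called for the averaged isoproterenol effect was 5, and it was 9 with the replicate block, 10 with the block and the share of ribosomal RNA as a covariate (5.55% of all genes tested), 8 without a bound on the fold change (4.49%), and between 1 and 7 when a library or a replicate number was left out. The lowest, 1, was without replicate number 3. Starting from the blocked fit, leaving the block out gave 5, and leaving out a replicate number gave 7 to 9. For the averaged sgRNA effect 0 were called, and 1 with the replicate block. The blocked fit gave 0 to 2 without a replicate number and 0 without the block. The genes were *Gm10925* without number 3, *Gm14150* and *Gm6093* without number 4, and none without number 5 or 6. In empty vector cells isoproterenol changed 2 genes, but 4 by DESeq2 (1.72% of all genes tested), 8 with the replicate block (4.47%), 5 with the covariate (1.32%), 10 with both (4.31%), and 0 to 3 without a library or replicate number. In sgRNA cells it changed 0, but 1 each by DESeq2 (1.33%), without the filter on low counts (0.935%) and with the covariate (0.951%), 3 with the replicate block (3.9%), 4 with both (4.09%), and 0 to 1 without a library or replicate number. The median sgRNA difference of the protein coding genes was 0.03, and −0.0916 with the covariate. The cause of these differences was not tested. For the fits that left out a library or replicate number no share of all genes tested is given, so their counts describe the set alone. Beyond those given in the report, the replicate block changed no other call among the named genes, leaving aside *Gm15551* and *Gm47140*, which are described without a test. For the averaged isoproterenol effect *Gm38684* was called in every setting tried, and *Gm32856* in every setting other than the unblocked fit without replicate number 3. Levels of the genes near the minimum rest on few counts, and values of copies on the division of shared reads.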
